A study of Mus musculus with 24 samples.

Results

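Tuft cell genes were measured by RNA sequencing in the ileum of 24 C57BL/6N mice, a wild-type inbred strain, which differed in diet and in metformin treatment. The gene set held 10 members, chosen by symbol and matched to 10 of the 55536 genes of the count table: Pou2f3, Gfi1b, Dclk1, Avil, Trpm5, Sucnr1, Il17rb, Il25, Alox5 and Ptgs1. The 4 groups were CD (control diet, 10% of energy from fat, no metformin), CDmetf (control diet with metformin), HFD (high-fat diet, 60% of energy from fat, no metformin) and HFDmetf (high-fat diet with metformin), with 3 males and 3 females each. The mice were 4 to 5 weeks old at the start, ate their diet for 20 weeks, and then, where treated, drank metformin at 50 mg/kg body mass/day for 10 weeks while the diet went on. Mice were kept 3 to a cage and 1 mouse was drawn from each cage, so the replicates were separate animals from separate cages. All groups shared the strain and the tissue, and the HFD mice stood as a diet-induced model of obesity and insulin resistance.

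Tuft cells are rare chemosensory cells of the intestinal epithelium, recognised by a tuft of long apical microvilli. They use parts of the taste receptor cascade to sense luminal metabolites such as succinate. They are the main epithelial source of IL-25, a cytokine that calls type 2 innate lymphoid cells, whose IL-13 in turn acts on epithelial progenitors so that more tuft and goblet cells form. They also make leukotrienes and prostaglandins. The members cover these roles: Pou2f3 is the transcription factor needed for the tuft lineage and Gfi1b another transcription factor of these cells. Dclk1 encodes a microtubule-associated kinase widely used as a tuft cell marker, and Avil encodes advillin, an actin-binding protein of the apical bundle. Trpm5 encodes the cation channel at the end of the taste cascade and Sucnr1 the succinate receptor. Il25 encodes the cytokine and Il17rb a subunit of its receptor. Alox5 encodes the enzyme that begins leukotriene synthesis, and Ptgs1 the constitutive cyclooxygenase of prostaglandin synthesis. In whole tissue, fewer tuft cells and less RNA per tuft cell cannot be told apart.

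All coordinates are on GRCm38, with gene models from GENCODE M21. Dclk1 (ENSMUSG00000027797) lies at chr3:55242364-55539068 on the plus strand. Sucnr1 (ENSMUSG00000027762) lies on the same chromosome at chr3:60081869-60087566, plus strand. Trpm5 (ENSMUSG00000009246) lies at chr7:143069153-143094642 on the minus strand and Pou2f3 (ENSMUSG00000032015) at chr9:43123939-43210369, minus strand. Avil (ENSMUSG00000025432) lies at chr10:127000709-127020994, plus strand. Alox5 (ENSMUSG00000025701) lies at chr6:116410077-116461178, minus strand. Chromosome 2 carries Gfi1b (ENSMUSG00000026815) at chr2:28609450-28621982, minus strand, and Ptgs1 (ENSMUSG00000047250) at chr2:36230426-36252272, plus strand. Chromosome 14 carries Il17rb (ENSMUSG00000015966) at chr14:29996135-30008896, minus strand, and Il25 (ENSMUSG00000040770) at chr14:54932695-54935837, plus strand. Exons of 5 members overlap exons of a gene on the opposite strand, over 220 bp for Trpm5 with Tssc4, 165 bp for Avil with Tsfm, 148 bp for Ptgs1, 141 bp for Il17rb with Actr8 and 114 bp for Dclk1. The libraries were directional, but the strand used in counting is not given in the sources used here, so reads in those stretches may belong to either gene.

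Promoters were looked up because POU2F3 belongs to the POU family, which is known to bind the octamer ATGCAAAT. RefSeq promoter windows of 300 bases (250 before and 50 after the start, GRCm38.p6) were found for 8 of the 10 members, with 2 windows for Dclk1, and Pou2f3 and Il25 had no entry. The octamer, searched on both strands, was found in 1 of these 9 windows, that of Sucnr1, and in 1.74% of all 32851 windows. In Sucnr1 it reads along the gene's own strand and its first base lies 48 bases before the start. The windows of Sucnr1 (chr3:60081619-60081918, plus strand), Trpm5 (chr7:143094593-143094892, minus strand) and Avil (chr10:127000459-127000758, plus strand) are shown 5′ to 3′ along the gene, Sucnr1 for the octamer, in capitals, and the other two as windows of genes with correlated levels that lack it.
Sucnr1: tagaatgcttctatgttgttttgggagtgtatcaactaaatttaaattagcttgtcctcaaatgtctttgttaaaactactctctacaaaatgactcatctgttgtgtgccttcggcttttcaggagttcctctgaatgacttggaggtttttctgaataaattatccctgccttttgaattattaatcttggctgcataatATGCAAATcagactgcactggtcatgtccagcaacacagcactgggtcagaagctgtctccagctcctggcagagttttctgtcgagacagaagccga
Trpm5: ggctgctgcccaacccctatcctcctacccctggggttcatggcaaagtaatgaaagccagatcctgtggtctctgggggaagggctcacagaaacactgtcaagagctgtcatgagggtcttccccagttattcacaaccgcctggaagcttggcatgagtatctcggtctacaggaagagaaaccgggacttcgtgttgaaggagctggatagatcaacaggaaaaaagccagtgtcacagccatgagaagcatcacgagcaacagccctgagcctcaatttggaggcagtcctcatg
Avil: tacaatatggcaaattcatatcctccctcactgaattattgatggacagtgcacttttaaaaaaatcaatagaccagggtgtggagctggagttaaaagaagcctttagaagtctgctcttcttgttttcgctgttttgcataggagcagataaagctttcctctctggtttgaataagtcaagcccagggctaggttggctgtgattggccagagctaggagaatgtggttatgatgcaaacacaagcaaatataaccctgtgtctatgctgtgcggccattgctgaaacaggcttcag
The window of Il17rb stood apart in base composition, with 72% G or C and 32 CpG dinucleotides. The other windows held 40.7 to 55.7% G or C and 2 to 7 CpG dinucleotides, beside a median of 52.7% G or C over all windows. A match of letters is a description and not a binding site, and the absence of the octamer says only that these letters are not in the window.

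Depth set what could be seen. Libraries held 1829690 to 40606442 reads on genes (median 3467308), so that 3 reads, the limit that a count of 0 allows, were worth 0.0705 CPM in the deepest library (HFD F1) and 1.71 CPM in the shallowest (HFDmetf F2). In CD M3, the third male of CD, 10 genes took 85.4% of the reads, against 9.22 to 36.6% in the other 23 libraries. Its TMM factor was 0.189, against 0.912 to 1.22 elsewhere. Xist and Y-linked transcripts of HFD M2 and HFD F2 went against their sex labels, and both are called by their labels here. The ileal label was checked against distal enterocyte genes (Fabp6, Slc10a2, Fgf15, Slc51a, Slc51b), whose summed level ran from 157 to 4741 CPM and was lowest in HFD M3.

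The order of the members by level per kilobase of exon was led by Ptgs1, with a median of 5.44 CPM per kb over the 24 libraries (range 3.31 to 7.79). Avil followed with 3.20 CPM per kb, Trpm5 with 2.78, Dclk1 with 1.79 and Il17rb with 1.40. Alox5 stood at 1.34 CPM per kb, Pou2f3 at 1.17, Sucnr1 at 0.658 and Gfi1b at 0.276. Il25 came last, with a median of 0 and 13 reads in all, spread over 5 of the 24 libraries. Neighbours in this order could not always be separated. Il17rb was above Alox5 in 10 of 24 libraries and Alox5 above Pou2f3 in 13, so these 3 genes had no stable order, whereas Ptgs1 was above Avil in 22 and Trpm5 above Dclk1 in 23. On read counts alone 7 members passed the expression filter (Pou2f3, Dclk1, Avil, Trpm5, Il17rb, Alox5 and Ptgs1), and Sucnr1, Gfi1b and Il25 did not.

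All values from here on are CPM, counts scaled to the TMM-normalised library size. The transcription factor Pou2f3 ranged from 2.68 to 9.69 CPM in CD (median 3.37), from 1.80 to 3.89 in CDmetf (2.76), from 2.19 to 15.5 in HFD (4.95) and from 1.88 to 6.83 in HFDmetf (4.01). The 4 ranges overlapped, and the highest value of HFD was that of 1 library, HFD M3, with the next at 6.00 CPM. Gfi1b, at 150 reads in all, ran from 0 to 1.42 CPM in CD, 0 to 1.52 in CDmetf, 0.494 to 3.68 in HFD and 0 to 1.71 in HFDmetf. HFD was higher than CD in each of the 6 pairs of same labelled sex and number for Gfi1b, but the ranges overlapped and most values lay under the 3-read limit of the shallow libraries. These pairs include HFD M2 and HFD F2, and the share of all genes with such pairs was not counted. In a fit without the expression filter Gfi1b had logFC = 0.87 ± 0.64 (SE, unadjusted p = 0.18 by edgeR's quasi-likelihood test).

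The structural markers were more abundant. Dclk1 ranged from 20.8 to 51.7 CPM in CD (median 29.4), from 19.3 to 32.1 in CDmetf (27.1), from 13.3 to 95.2 in HFD (26.1) and from 22.9 to 50.6 in HFDmetf (30.02). Both ends of the whole range, HFD F2 at 13.3 CPM and HFD M3 at 95.2 CPM, fell in HFD. Avil ranged from 9.31 to 20.1 CPM in CD (median 11.7), from 9.07 to 12.2 in CDmetf (9.75), from 7.45 to 29.0 in HFD (11.3) and from 7.97 to 15.9 in HFDmetf (10.4). CDmetf was the tightest group for both genes.

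Of the sensing genes, Trpm5 ranged from 17.8 to 32.8 CPM in CD (median 19.4), from 7.82 to 20.0 in CDmetf (14.6), from 12.8 to 54.8 in HFD (20.2) and from 13.9 to 28.4 in HFDmetf (15.8). Of the 6 CDmetf libraries, 4 lay below the lowest CD value, and the other two overlapped with CD. Sucnr1, with 421 reads in all, ranged from 0.266 to 3.07 CPM in CD (median 0.857), 0.327 to 2.02 in CDmetf (1.21), 0.579 to 7.36 in HFD (1.41) and 0.745 to 3.98 in HFDmetf (1.44).

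Il25, the cytokine gene, was close to undetected. It had 4 reads in CD, 8 in CDmetf, 0 in HFD and 1 in HFDmetf, with at most 5 in any library. Every group lay at or under the 3-read limit in most of its libraries, so no fold is given. Its receptor subunit Il17rb was detected in all 24 libraries, from 3.99 to 6.03 CPM in CD (median 4.76), 2.61 to 5.76 in CDmetf (4.09), 4.22 to 9.40 in HFD (5.20) and 2.71 to 9.10 in HFDmetf (5.96).

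Of the lipid mediator genes, Alox5 ranged from 5.05 to 8.51 CPM in CD (median 5.91), 4.56 to 5.97 in CDmetf (5.43), 4.40 to 19.6 in HFD (5.95) and 3.98 to 10.8 in HFDmetf (4.85). Ptgs1 varied least, with a coefficient of variation of 0.213 over the 24 libraries beside 0.507 for Dclk1 and 0.666 for Pou2f3. It ranged from 14.2 to 28.7 CPM in CD (median 18.6), 17.8 to 27.3 in CDmetf (22.2), 12.9 to 30.2 in HFD (19.1) and 17.6 to 26.7 in HFDmetf (22). No member had groups that did not overlap in any of the 4 contrasts.

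**Figure D1:**
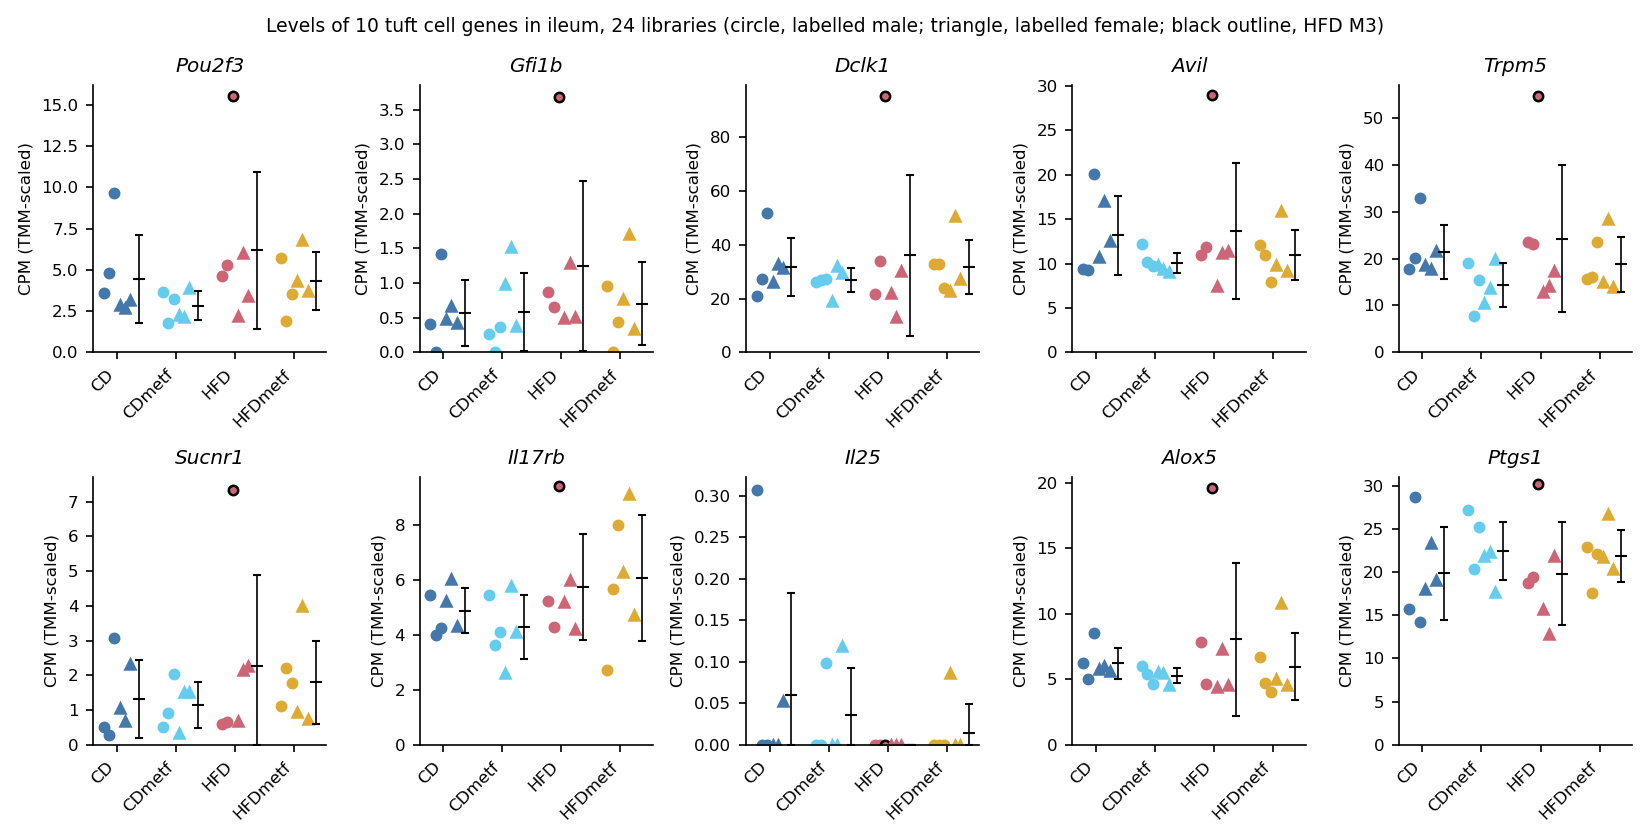
Level of each of the 10 members in every library, in CPM after TMM scaling (y axes start at 0), by group on the x axis. Circles are labelled males, triangles labelled females, and the bar beside each group is the mean ± SD (n = 6, the lower arm stopped at 0). HFD M3, outlined in black, is the highest of the 24 libraries for 9 members and at 0 for Il25.

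The effect of high-fat diet without metformin was tested as HFD vs. CD. No member passed FDR under 0.05 with edgeR's quasi-likelihood test, nor did any of the 14076 genes tested (0%). At an unadjusted p under 0.05 the count was 0 of 7 members, beside 4.63% of all genes. Pou2f3 had the largest difference, logFC = 0.36 ± 0.37 (SE, FDR = 1.00), with means of 6.17 ± 4.78 CPM in HFD and 4.46 ± 2.67 in CD (SD, n = 6). Dclk1 had logFC = 0.08 ± 0.29, with a 95% interval of -0.52 to 0.69, which leaves room for a change in either direction. The median logFC of the 7 members was 0.08, beside -0.0047 for all genes, and 5 members were higher. The direction changed with the libraries and with the method. Without HFD M3 1 of 7 members was higher, the median was -0.17 and Dclk1 had logFC = -0.30 ± 0.21. With limma-voom on all libraries 2 were higher (median -0.019), and with its sample quality weights 1 was (median -0.18). Without CD M3, without the replicate number as a term or with a score of epithelial genes as a covariate 6 were higher. Without HFD M2 and HFD F2 all 7 were.

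Under metformin the diets were compared as HFDmetf vs. CDmetf. Again no member passed FDR under 0.05 in edgeR's test, beside 0% of all genes. No member reached an unadjusted p under 0.05, beside 7.87% of all genes. Of the 7 members 6 were higher, with a median logFC of 0.26 beside 0.03 for all genes. Pou2f3 had logFC = 0.65 ± 0.38 (FDR = 0.67) and was higher in 5 of 6 pairs of same sex and number, and Il17rb had logFC = 0.44 ± 0.27 (FDR = 0.68), also higher in 5 of 6. The libraries of this contrast do not include HFD M3, which entered through the shared terms and the shared spread, and without it 6 of 7 members were higher with a median of 0.21. Without HFDmetf F2, which is in the contrast, each of the 7 values was at its lowest over the left-out animals, 4 members were higher and the median was 0.031, with Pou2f3 at 0.43 and Il17rb at 0.32. The directions also did not hold with an epithelial marker score, the mean standardised log2 CPM of 8 epithelial genes, as a covariate. In that fit 3 of 7 members were higher and the median was -0.10.

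Metformin on the high-fat diet was tested as HFDmetf vs. HFD. No member passed FDR under 0.05 in edgeR's test (0% of all genes did), and none reached an unadjusted p under 0.05, beside 6.61% of all genes. Alox5 had logFC = -0.35 ± 0.32 (FDR = 0.71), with means of 5.96 ± 2.54 CPM in HFDmetf and 8.04 ± 5.86 in HFD (SD, n = 6). The median logFC was -0.22 and 5 of 7 members were lower. Without HFD M3, 6 of 7 members were higher and the median was 0.04. Other settings moved the values the other way. With the epithelial marker score as a covariate 6 of 7 members were lower, the median was -0.52 and 3 reached an unadjusted p under 0.05, the smallest being 0.018 and the smallest FDR 1.00. Without HFD M2 and HFD F2 all 7 were lower, with a median of -0.36, and without HFDmetf F2 Trpm5 had logFC = -0.52 ± 0.24 (unadjusted p = 0.041).

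Metformin on the control diet was tested as CDmetf vs. CD. No member passed FDR under 0.05 in edgeR's test (0% of all genes did). Trpm5 had an unadjusted p of 0.045, 1 of 7 members, beside 5.14% of all genes. Its logFC was -0.55 ± 0.26 (FDR = 0.94), with means of 14.4 ± 4.74 CPM in CDmetf and 21.5 ± 5.76 in CD (SD, n = 6), and it was lower in 5 of 6 pairs. Without CD M3 its logFC was -0.52 ± 0.28 with an unadjusted p of 0.074. Leaving out 1 of CD M2, CD M3, CD F1, CD F2, CDmetf M2, CDmetf M3 or CDmetf F1 took every member above an unadjusted p of 0.05, and without the replicate number as a term the smallest p of the 7 members was 0.072. It was 0.0502 without the sex term. With a score of 6 proximal enterocyte genes as a covariate, built like the epithelial score, it was 0.058. Of the other members Pou2f3 had logFC = -0.54 ± 0.38 and Avil -0.38 ± 0.25, while Ptgs1 had 0.19 ± 0.18, so that 6 of 7 were lower, with a median of -0.26 beside -0.0023 for all genes. Leaving out HFD M3, which is in neither group, left 6 of 7 lower.

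**Figure D2:**
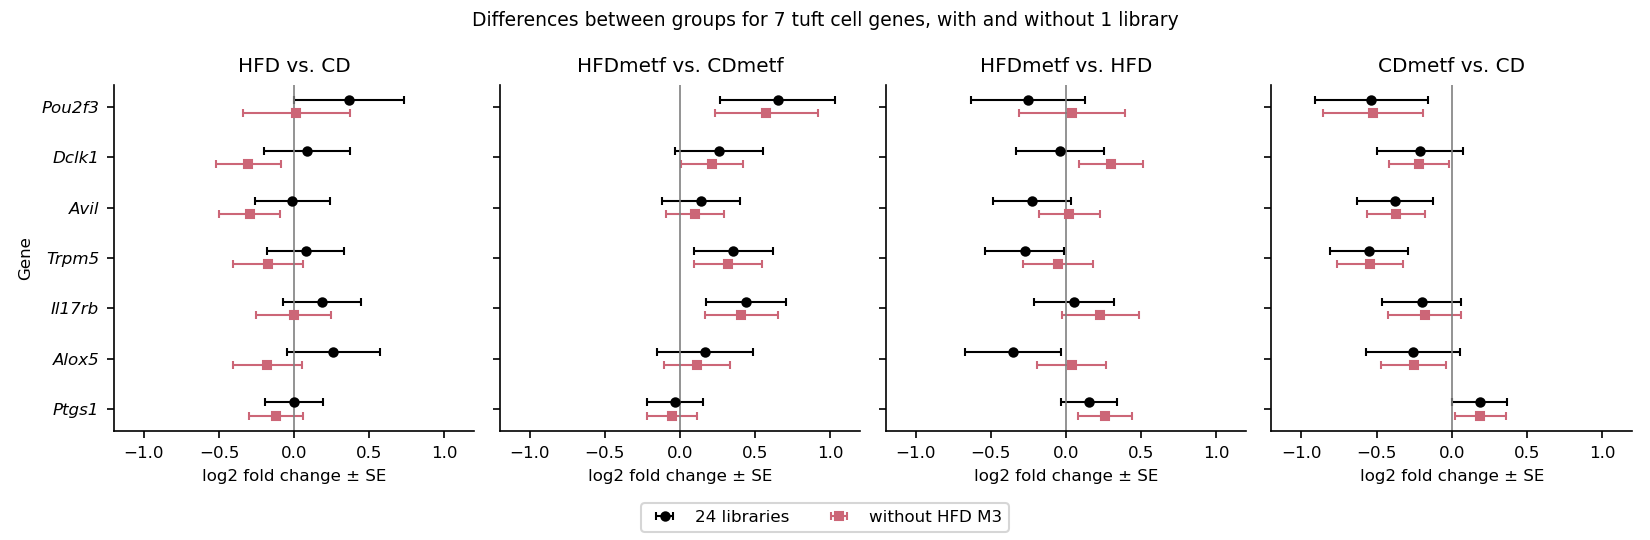
log2 fold change ± SE (x axis) of the 7 members past the filter (y axis) in the 4 contrasts, fitted with all 24 libraries (black circles) and without HFD M3 (red squares). In HFD vs. CD the members with a positive value number 5 with all libraries and 1 without HFD M3, and in HFDmetf vs. HFD they number 2 and 6.

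Averaged over metformin, the diet effect had no member past FDR under 0.05 in edgeR's test (0% of all genes) and 0 of 7 at an unadjusted p under 0.05, beside 5.96% of all genes. Pou2f3 had logFC = 0.51 ± 0.27 (unadjusted p = 0.069, FDR = 0.86). It reached an unadjusted p of 0.036 without CD M3 (logFC = 0.60 ± 0.27) and had logFC = 0.29 ± 0.25 without HFD M3. Leaving out CDmetf F3, HFD F1, HFD F3, HFDmetf M1, HFDmetf M2 or HFDmetf M3 also left 1 member at an unadjusted p under 0.05. Averaged over diet, the metformin effect had no member past FDR under 0.05 (0% of all genes) and 1 of 7 at an unadjusted p under 0.05, beside 5.04% of all genes. That member was Trpm5, logFC = -0.41 ± 0.19 (unadjusted p = 0.037, FDR = 0.79), with -0.30 ± 0.16 (unadjusted p = 0.080) without HFD M3. Leaving out CDmetf M3, HFDmetf M1, HFDmetf M3 or HFDmetf F3 also left 0 members at an unadjusted p under 0.05, while 2 members reached it without HFD F1, 3 without HFDmetf F2 and 3 with the epithelial marker score as a covariate. The smallest unadjusted p was 0.0038 without HFDmetf F2 and 0.0039 with that score, where the smallest FDR was 0.88. With the proximal enterocyte score as a covariate 0 members reached an unadjusted p under 0.05, the smallest being 0.072. The interaction of diet and metformin had no member past FDR under 0.05 (0% of all genes) or at an unadjusted p under 0.05, beside 6.03% of all genes, and its largest value was that of Pou2f3, logFC = 0.29 ± 0.53. Without HFD M3 all 7 values of the interaction were positive, with a median of 0.41 beside 0.0036 for all genes, the smallest unadjusted p being 0.093.

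Labelled males and females were compared in the same model. No member passed FDR under 0.05 in edgeR's test, and 1 gene of all 14076 did (0.0071%). No member reached an unadjusted p under 0.05, beside 7.27% of all genes. Pou2f3 was the closest, logFC = 0.52 ± 0.27 in males over females (unadjusted p = 0.066, FDR = 0.68), and 6 of 7 members were higher in males. HFD M3 is a male library, and without it Pou2f3 had logFC = 0.33 ± 0.25 and the median of the 7 members was 0.05 in place of 0.27. Without HFD M2 and HFD F2, whose transcripts go against their labels, all 7 were higher in males (median 0.20, smallest unadjusted p 0.056). Leaving out CDmetf M2, CDmetf F3, HFD F2, HFDmetf M2 or HFDmetf M3 brought 1 member to an unadjusted p under 0.05. Leaving out HFDmetf F2 brought 2, as did limma-voom (smallest 0.033), and limma-voom with sample quality weights 0.

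Whether each contrast differed between the sexes was tested with 8 groups of 3. For HFDmetf vs. HFD, Trpm5 had a difference of -1.17 ± 0.46 (males minus females, logFC, unadjusted p = 0.020, FDR = 1.00), 1 of 7 members, beside 3.33% of 14402 genes and 0% past FDR. The Trpm5 values behind it were 23.5, 23 and 54.8 CPM in HFD males and 12.8, 14.1 and 17.4 in HFD females. In HFDmetf they were 15.6, 16 and 23.5 CPM in males and 15, 28.4 and 13.9 in females. By label the HFD males lay above the HFD females, and the HFDmetf sexes overlapped. Sorted by their sex-linked transcripts, HFD M2 (23 CPM) falls with the females and HFD F2 (14.1 CPM) with the males, and the HFD sexes then overlap as well. All 7 members had a negative difference, with a median of -1.11, beside 0.063 for all genes, of which 56.8% had a positive value. Without HFD M3 the median was -0.41, Trpm5 had -0.81 ± 0.46, and 0 members reached an unadjusted p under 0.05, as was also the case without HFDmetf F2. Without the replicate number as a term 3 members did. Without HFD M2 and HFD F2, whose transcripts go against their labels, 4 members did, the smallest p being 0.0040 and the smallest FDR 1.00.

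The other 3 differences between the sexes had no member at an unadjusted p under 0.05, beside 2.11% of genes for HFD vs. CD, 5.28% for HFDmetf vs. CDmetf and 5.21% for CDmetf vs. CD, and 0% of genes past FDR in each. For HFD vs. CD all 7 values were positive, with a median of 0.84 that became 0.18 without HFD M3. Over all genes the median was -0.035 and 46.1% of the values were positive. Without CD M3, Dclk1 reached an unadjusted p of 0.040 there and 2 members in all did. Without HFD M2 and HFD F2, 3 members did, the smallest p being 0.016.

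Leaving out HFD M3 thus moved the values of each comparison that includes HFD. This library had 2699529 reads on genes, of which 19% fell in 10 genes, and its sex-linked transcripts fitted its label. It was the highest of the 24 libraries for each of the 9 members it detected, whereas 6.94% of the 14076 genes had their highest value there. It exceeded the median of the other 23 libraries over 2-fold for 5 of the 7 members past the filter, beside 6.48% of all genes. Dclk1 had 233 reads there, 95.2 CPM (95% exact binomial interval 83.4 to 108), against a median of 27.4 and a maximum of 51.7 in the others. Trpm5 stood at 54.8 CPM (45.9 to 64.9), 3.08 times the median. Pou2f3, from 38 reads, stood at 15.5 CPM (11.0 to 21.3), 4.32 times the median. Alox5 was at 3.597 times and Avil at 2.70 times the median, while Il17rb at 1.81 times and Ptgs1 at 1.48 times were close to the highest of the other libraries (9.10 and 28.7 CPM). Sucnr1 (18 reads) was at 7.05 times and Gfi1b (9 reads) at 7.45 times the median. Il25 had 0 reads, which allows up to 1.23 CPM. These intervals and limits cover counting error only, since reads without molecular identifiers are not independent molecules.

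Next to HFD M3, the second highest value fell 4 times in CD M3 and 4 times in HFDmetf F2, the shallowest library. The place of CD M3 depended on the scaling. Its Dclk1 level was 51.7 CPM, the second of 24, after TMM and 9.77 CPM, the lowest, when reads on genes were not rescaled. HFD M3 had the highest Dclk1 value under both scalings (95.2 and 86.3 CPM), and without TMM it was highest for 7 of the members, Il17rb and Ptgs1 no longer among them. Scaled by the summed epithelial level, the same 7 were highest in HFD M3, and its Dclk1 value of 103 CPM was close to that of HFDmetf F2, 89.6 CPM.

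Other tuft cell genes were taken from lists of companions, 44 genes of which 42 were in the table and 31 passed the filter. In HFD M3, 14 of the 31 had the highest of 24 values, beside 6.94% of all genes. There 16 exceeded 2-fold the median of the others, beside 6.48% of all genes. The highest folds were those of Rgs13, a regulator of G protein signalling, at 61.3 CPM against a median of 7.71 (7.95 times), and of Ltc4s, the leukotriene C4 synthase, at 10.2 CPM against 1.42 (7.21 times). Sh2d6, an adaptor gene, stood at 50.3 CPM against 7.97, and Siglecf, a sialic acid binding lectin of tuft cells and eosinophils, at 25.3 against 4.92. Plcb2, the phospholipase of the taste cascade, stood at 20.8 CPM against 9.61. Alox5ap, the partner of Alox5, had 10 reads there, 4.09 CPM against 1.21, and Hpgds, the prostaglandin D synthase, 17.6 CPM against 8.26.

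Not every companion followed. Of the 4 lineage factors past the filter none was highest in HFD M3: Spib was at 28.2 CPM against a median of 9.87, and Atoh1, the factor of the secretory lineage, was the lowest of 24 at 17.6 CPM against 30.8. Itpr3, the calcium channel of the cascade, was at 236 CPM against 214. Gnat3, the taste G protein, had 6 reads, Chat, the acetylcholine synthase, 6, and Gng13 1, too few for an order.

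**Figure D3:**
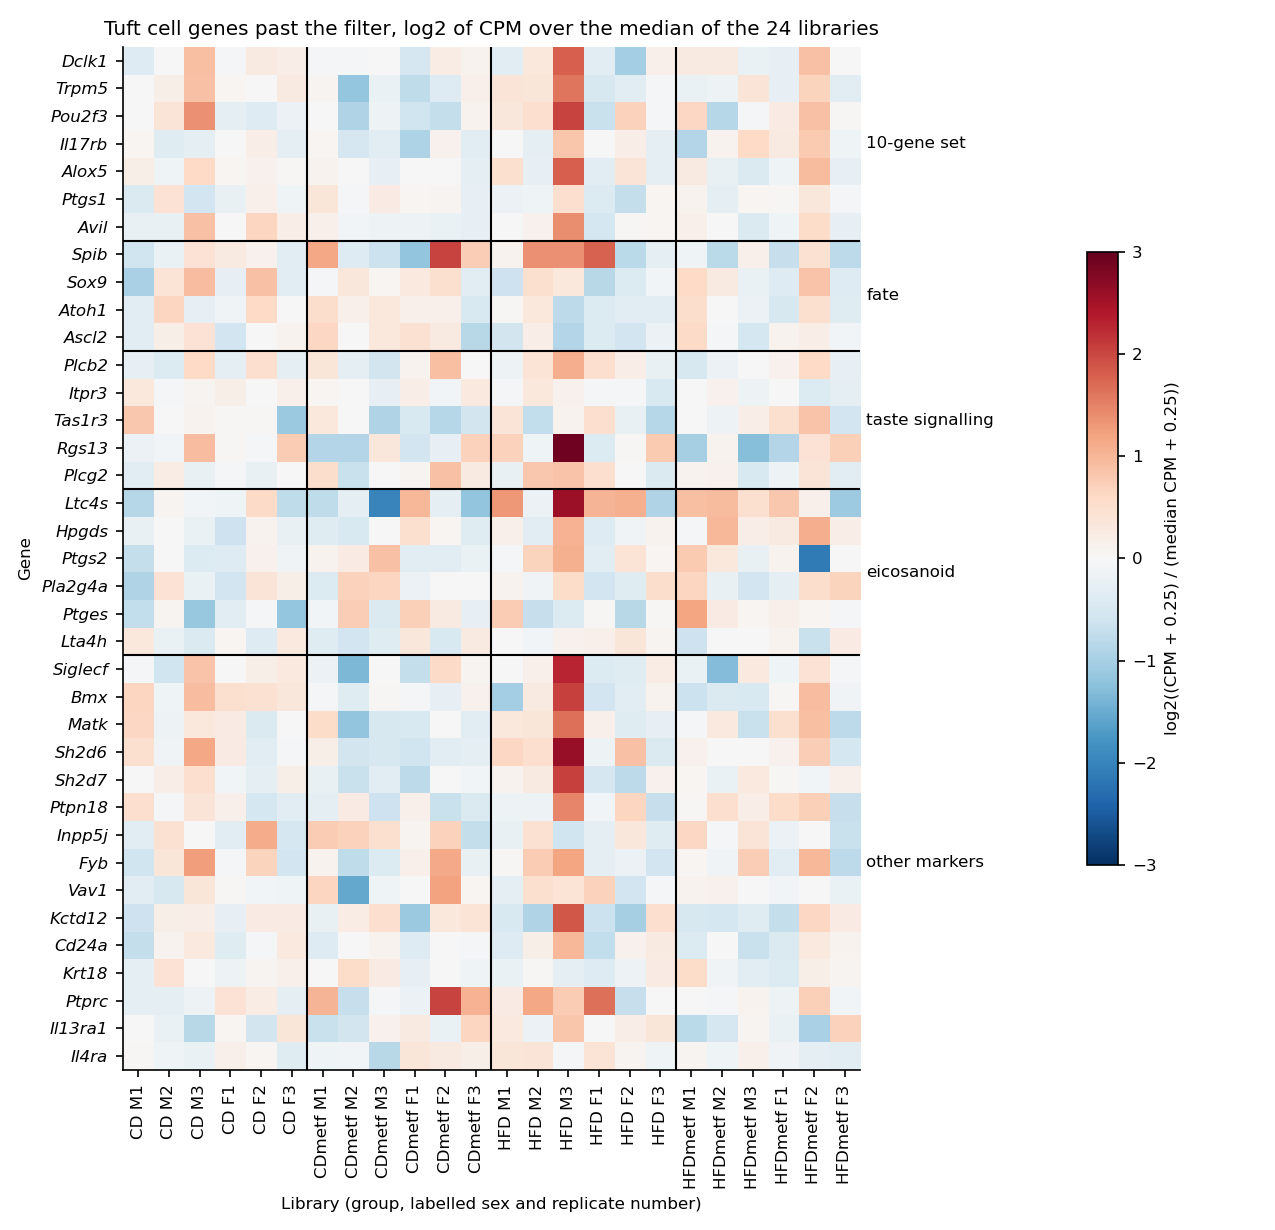
Members and most companion genes past the filter (rows) in the 24 libraries (columns), as log2 of CPM over the gene's median, each with 0.25 added; red is above and blue below the median. The column of HFD M3 is red for all 7 members and for most companions, with Rgs13, Sh2d6, Ltc4s and Siglecf the darkest, while Atoh1 and Ascl2 are blue.

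Markers of other cells moved with HFD M3 as well. The summed level of 6 proximal enterocyte genes was 14120 CPM, the highest of 24, against 135 to 8069 CPM in the others. The distal list was the lowest of 24, at 157 CPM against 295 to 4741, with Fgf15 at 0 reads and Fabp6 at 2. The pan-epithelial sum was 11140 CPM (rank 16 of 24 from the highest) and the goblet sum 8398 CPM (rank 23). The stem cell, Paneth and enteroendocrine sums were at ranks 17, 17 and 19. None of these 5 sums lay above the range of the other libraries, but single genes within the lists differed. Of the Paneth genes Ang4 was the highest of 24 (1066 CPM, 2.59 times the median), Defa30 was at rank 2 and Lyz1 was the lowest. Of the goblet genes Spink4 was at rank 2 and Zg16 was the lowest. The 5 libraries next in proximal level were CDmetf F1, HFD M1, HFD F1, CD M1 and HFDmetf F1, at 5187 to 8069 CPM. All of them carry replicate number 1. They had Dclk1 at 19.3 to 22.9 CPM, below its median. Pou2f3 was at 2.19 to 4.63 CPM there, on both sides of its median of 3.59 CPM. Each other member past the filter also lay on both sides of its median, such as Trpm5 at 10.5 to 23.5 CPM and Alox5 at 4.40 to 7.82 CPM. Mast cells also express Alox5 and Hpgds, and their marker genes had a sum of 44.5 CPM in HFD M3 (rank 14), of which Kit, also expressed by other cells, gave 28.6 CPM (rank 19). The mast cell protease genes were mixed: Cpa3 (6 reads, 2.45 CPM) was the highest of 24 at 7.38 times the median of the others, Mcpt1 (27 reads, 11.0 CPM) was at rank 3 and 7.28 times the median, Mcpt2 (5 reads) was also at rank 3, Cma1 had 1 read and Tpsb2 0. Fcer1a, the mast cell IgE receptor subunit, had 0 reads. The summed myeloid list was at rank 16 and the T cell list at rank 17. The adipocyte sum was 130 CPM (rank 7). A proximal enterocyte score was a covariate in fits of the group differences only. The part of these other cells, or of the proximal pattern, in the level of the members in HFD M3 was not tested.

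**Figure D4:**
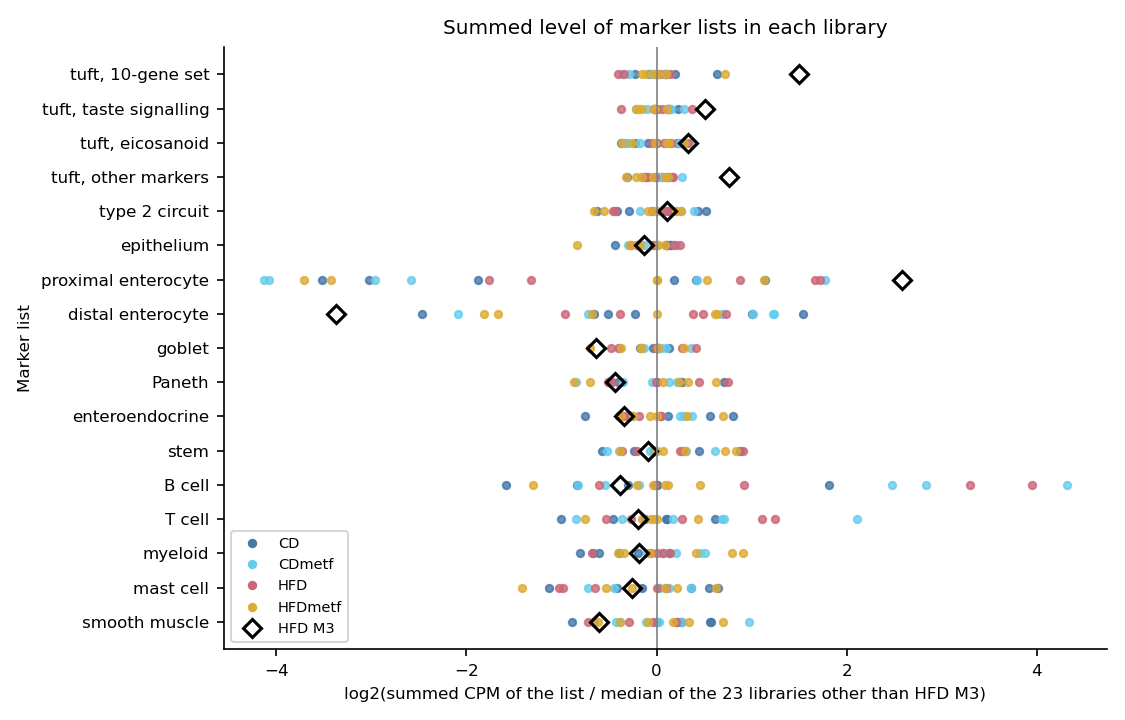
Summed CPM of each marker list (rows) in each library, as log2 over the median of the 23 libraries other than HFD M3 (x axis). Dots are the 23 libraries in the colour of their group and the open diamond is HFD M3, which lies to the right of every dot for the 10-gene set, 2 other tuft cell lists and proximal enterocytes, and to the left of every dot for distal enterocytes.

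Of the 10 genes of the type 2 circuit past the filter, 1 was highest in HFD M3, Il33, beside 6.94% of all genes. Il13, Il4, Il5 and Il9 had 0 reads in HFD M3, which allows up to 1.23 CPM each, and Il13 had at most 3 reads in any library. Il33, an alarmin gene, stood at 54.8 CPM against a median of 17.7 and a next value of 50.2. Gata3, the factor of type 2 lymphocytes, was at 2.86 CPM (rank 6). The receptor genes Il13ra1, at 254 CPM (rank 1), and Il4ra, at 64.6 CPM (rank 13), are counted among the companions and not here. Retnlb, a goblet cell gene that type 2 cytokines induce, did not pass the filter. It had 6 reads in HFD M3, 2.45 CPM, the highest of 24. Clca1, another such gene, stood at 2039 CPM (rank 10).

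Between the groups, no companion or type 2 gene passed FDR under 0.05 in edgeR's test in any of the 12 comparisons. At an unadjusted p under 0.05, 2 of 31 companions were higher in HFD vs. CD (Ltc4s and Ptprc) and 0 were lower, beside 4.63% of all genes in either direction, and the 31 had a median logFC of 0.26 beside -0.0047. In HFDmetf vs. CDmetf 1 was higher (Hpgds, logFC = 0.57 ± 0.25, FDR = 0.62), beside 7.87% of all genes. In HFDmetf vs. HFD 3 were lower (Rgs13, Il13ra1 and Spib), beside 6.61% of all genes, with a median of -0.26 beside 0.03, and in CDmetf vs. CD 2 were higher (Ptprc and Ptges), beside 5.14% of all genes. The counts of these 4 contrasts lay near the background. In the average metformin effect 1 companion was higher (Ptges) and 2 were lower (Rgs13 and Sh2d6), beside 5.04% of all genes. The largest count of the 12 comparisons was in HFDmetf vs. HFD, males minus females. There 6 of 31 were lower (Rgs13, Bmx, Siglecf, Cd24a, Matk and Sh2d7) and 0 higher, beside 3.33% of all genes. HFD M3, an HFD male, had the highest of 24 values for each of these genes. Ptprc and Spib are also expressed by B cells, and the summed B cell markers were highest in CDmetf F2 (413 CPM), HFD F1 (320 CPM) and HFD M2 (204 CPM), beside 6.93 to 148 CPM in the others. Those 3 libraries also had the 3 highest values of Ptprc (188, 145 and 102 CPM) and of Spib (44.5, 37.4 and 28.3 CPM). The 8 comparisons that pool the sexes were also refitted with the level of B cell genes as a further term. In those fits 0 to 2 of all genes per comparison passed FDR under 0.05. Their values for Ptprc and Spib are not given here, so the part of B cells in the group differences cannot be stated. Ltc4s had the smallest FDR of the companions in the 8 comparisons that pool the sexes, in the average diet effect, with logFC = 1.27 ± 0.45 (unadjusted p = 0.0093, FDR = 0.59). Ltc4s ranged from 0.719 to 2.35 CPM in CD, 0.196 to 3.27 in CDmetf, 0.687 to 10.2 in HFD and 0.576 to 3.14 in HFDmetf, with overlap throughout. Il4ra, a receptor subunit for IL-4 and IL-13, had the smallest FDR of the companions among the differences between the sexes, in HFDmetf vs. CDmetf (males minus females, logFC = 0.88 ± 0.23, unadjusted p = 0.0013, FDR = 0.48). Of 10 type 2 genes past the filter, 0 reached an unadjusted p under 0.05 in the 4 contrasts. Elsewhere 1 gene each did, with a positive value: Cysltr1 in the average diet effect, Areg in the average metformin effect and Rora in CDmetf vs. CD, males minus females. The remaining comparisons had 0.

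How far the members moved together was measured by correlating log2 CPM of the 7 members past the filter over the 24 libraries, 21 pairs in all. The median Pearson r was 0.54 (range 0.14 to 0.84), and 12 of 21 pairs had FDR under 0.05 by a two-sided permutation test with 100000 permutations. The highest was Alox5 with Avil, r = 0.84 (permutation p = 2e-05, FDR = 0.00021) and rho = 0.71 (permutation p = 0.00022, FDR = 0.0046). Trpm5 with Pou2f3 had r = 0.80 (permutation p = 2e-05, FDR = 0.00021) and rho = 0.61 (permutation p = 0.0017, FDR = 0.018). Dclk1 with Avil had r = 0.79 (permutation p = 5e-05, FDR = 0.00035) and rho = 0.57 (permutation p = 0.0043, FDR = 0.030). These were the 3 pairs that passed by Spearman's rho, the median rho being 0.27. Ptgs1 was the least related, with r of 0.14 to 0.45 to the other 6.

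Much of the correlation rested on single libraries. Without HFD M3 the median r was 0.28 and 7 of 21 pairs passed. The 3 pairs above then had r = 0.70, 0.70 and 0.63, while Dclk1 with Alox5 went from 0.63 to 0.28. Without the 2 libraries farthest from the median of the first gene, they had r = 0.65, 0.64 and 0.76. Within replicate numbers, 8 libraries each, the median r was 0.43, 0.38 and 0.67 for numbers 1, 2 and 3. Number 3, which holds both HFD M3 and CD M3, had 10 pairs past FDR under 0.05 by an exact permutation test, and the others 0. Library depth and the TMM factor are shared by all genes of a library and enter every pair.

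**Figure D5:**
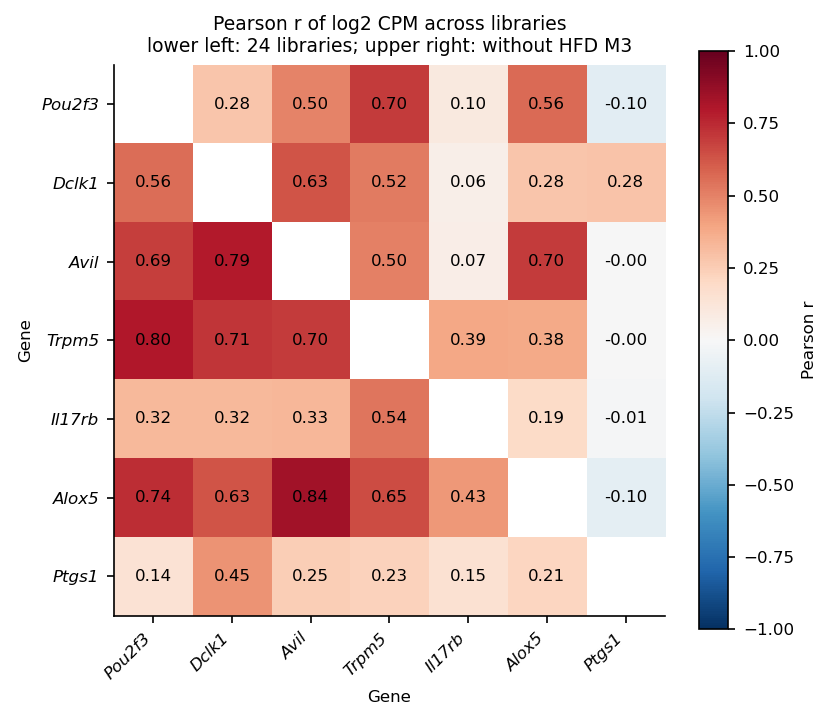
Pearson r of log2 CPM between the 7 members, over all 24 libraries (lower left) and without HFD M3 (upper right). The median of the 21 pairs is 0.54 in the lower left and 0.28 in the upper right, and the row of Ptgs1 is the palest.

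The genes most like the members were the 10 with the highest Pearson r to the mean standardised level of the 7 members, over 24 libraries. They included Strip2 (r = 0.84), Sh2d6 (0.82), Sh2d7 (0.81), Siglecf (0.80), Gprc5c (0.80), Ccnj (0.79), Pik3r5 (0.76), Bmx (0.76) and A530020G20Rik (0.74). Of these Sh2d6, Sh2d7, Siglecf and Bmx were on the companion lists. HFD M3 had the highest level of all but A530020G20Rik, for which it was second. Without HFD M3 A530020G20Rik led with r = 0.79, followed by Chrm3 (0.76) and Tdrp (0.75), and none of the 10 was a companion.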

How the data were processed

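Whole-ileum RNA was depleted of ribosomal RNA, made into directional libraries and sequenced on a DNBSEQ instrument. The authors trimmed reads with Trimmomatic 0.39, mapped them with STAR 2.5.3a to GRCm38 and deposited raw counts per gene for the 24 libraries; which annotation and which strand were counted is not given in the sources used here. The 4 rows that name no gene held 35.5 to 75.7% of the reads of a library and were left out. Of 55536 gene IDs, 55450 have a symbol in GENCODE M21.

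Counts were normalised with TMM and, after filterByExpr (14076 genes), fitted with edgeR 4.0.16 in R 4.3.3 (quasi-likelihood F-test, Benjamini-Hochberg FDR over all genes) with terms for group, sex and replicate number (17 residual df). Differences between sexes used 8 groups of 3 (14402 genes, 14 df). Intervals of logFC use the SE and 17 df. log2 CPM values carry a prior count of 1. Named genes are the 10 members, 13 companions (Gnat3, Gng13, Plcb2, Alox5ap, Ltc4s, Hpgds, Siglecf, Chat, Il4ra, Il13ra1, Il13, Il33, Gata3), any listed gene with FDR under 0.05 and the 10 genes most like the members, of which 1 is not reported here. The other genes named (such as Rgs13, Sh2d6, Spib and Retnlb) were chosen after their values were seen. The members and lists were chosen with earlier results of these data known. The tests were checked on simulated counts. Alternatives were limma-voom 3.58.1 with and without sample quality weights, DESeq2 1.42.0, RLE factors, other filters, other terms and samples, marker scores as covariates and leaving out each animal. The proximal enterocyte score and the fits and correlations without HFD M3 outside the planned set were added after seeing the data. The replicate number was in the model because the study used its sequencing block as a covariate, although the labels do not say that a number is a block. Over pairs of libraries of different groups, deviations from the group mean correlated at a mean of 0.13 for the same number (72 pairs, 40 above 0.1), 0.17 for the same sex and number (36 pairs, 23 above 0.1) and -0.06 for different numbers (144 pairs, 29 above 0.1). Libraries of the same number were thus more alike on average, with r from -0.46 to 0.76. Depth also differed by number, with medians of 7223594, 2799886 and 24550181 reads on genes for numbers 1, 2 and 3. Whether a number marks a block or matched animals was not tested.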

Additional observations from a re-analysis of the deposited data

Results flagged for a closer look

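Within each group of 6, the highest or lowest library was compared with the other 5 for the 10 members and 13 companions, 92 sets in all, of which 29 were flagged for a gap to the nearest other library that took a larger share of the whole range than Dixon's 95% limit. For normally distributed values chance flags about 1 in 20 sets. CPM values were not shown to be so, and a group with reads in only 1 library is always flagged. That rate is therefore no measure of how unusual these flags are. Genes of one library are also not independent. HFD M3 gave 13 of them, 8 of these for members. In HFD it stood alone at 95.2 CPM for Dclk1, 54.8 for Trpm5, 15.5 for Pou2f3, 9.40 for Il17rb, 7.36 for Sucnr1, 19.6 for Alox5, 3.68 for Gfi1b and 29.0 for Avil. Among the companions it stood alone at 4.09 CPM for Alox5ap, 10.2 for Ltc4s, 17.6 for Hpgds, 25.3 for Siglecf and 54.8 for Il33. Of these 13, Siglecf had the widest gap, 0.899 of the range, the other 5 libraries lying between 3.71 and 5.89 CPM.

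CD M3 stood above the other CD libraries for Trpm5 (32.8 CPM), Pou2f3 (9.69) and Alox5 (8.51). HFDmetf F2 stood above the other HFDmetf libraries for Dclk1 (50.6 CPM, the other 5 between 22.9 and 32.96) and Gata3 (9.10, from 16 reads). CDmetf M1 was flagged for Avil (12.2 CPM) and CDmetf F1 for Ltc4s (3.27 CPM, 10 reads). Gata3 was also flagged in CD F2 (5.70 CPM, 17 reads) and CDmetf F2 (6.67 CPM, 22 reads).

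The remaining sets rest on 1 to 4 reads in a group that is otherwise at or near 0. Il25 was flagged in CD M1 (0.308 CPM) and HFDmetf F1 (0.0859 CPM), Gng13 in CDmetf F3 (0.0950 CPM), and Il13 in CD F2 (0.335 CPM), CDmetf M3 (0.0653 CPM), HFD M2 (0.329 CPM) and HFDmetf M2 (0.942 CPM).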

How the results depend on the processing

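No member passed FDR under 0.05 in any of the 12 comparisons with all 24 libraries, and the count was 0 in each of the 24 fits that left out 1 animal and in the 13 other settings, wherever a setting was run for that comparison; without the replicate block it was 0 as well, so the block changed no call at that threshold, while members at an unadjusted p under 0.05 went from 1 to 0 in CDmetf vs. CD and from 1 to 3 in HFDmetf vs. HFD, males minus females. limma-voom with sample quality weights called 16 to 2538 of all genes in 8 comparisons, beside 0 to 1 in edgeR and at most 48 in DESeq2, and its smallest FDR for a member was 0.050 (Ptgs1 in HFDmetf vs. HFD). At an unadjusted p under 0.05 it had 2 members in HFD vs. CD, HFDmetf vs. HFD, CDmetf vs. CD, the interaction and the average metformin effect. It had 1 in HFDmetf vs. CDmetf and 0 in the average diet effect and between the sexes. Those weights turned the direction of Trpm5 (-0.25), Pou2f3 (-0.16) and Alox5 (-0.28) in HFD vs. CD, of Pou2f3 (0.51), Alox5 (0.087) and Avil (0.18) in HFDmetf vs. HFD, of Alox5 in the interaction (0.40) and the average diet effect (-0.081) and of Pou2f3 in the average metformin effect (0.13). limma-voom without weights turned Pou2f3 (-0.0079) and Alox5 (-0.14) in HFD vs. CD. The epithelial score turned Dclk1 (-0.18), Alox5 (-0.21) and Avil (-0.20) in HFDmetf vs. CDmetf, Avil in the interaction (-0.22) and Dclk1 in the average diet effect (-0.060). Leaving out HFD M2 and HFD F2 turned Ptgs1 in HFDmetf vs. HFD (-0.037). Leaving out 1 animal at a time, logFC ran from -0.30 to 0.27 for Dclk1 and from -0.18 to 0.43 for Alox5 in HFD vs. CD, from -0.26 to 0.30 and from -0.60 to 0.038 in HFDmetf vs. HFD, and from -0.045 to 0.25 and from -0.033 to 0.29 in the average diet effect, the turn coming without HFD M3 each time. Shifts of sign within 1 SE were not counted. The cause was not tested. Scaled by the epithelial sum, mean Ptgs1 in HFDmetf was 26.6 in place of 21.9 CPM. Of 21 correlations, 12 passed by Pearson's r, 3 by Spearman's rho, 7 without HFD M3 (1 by rho), 14 without CD M3, and 0 within numbers 1 and 2. Depth limits Il25, Gfi1b and Sucnr1, whose levels lie near the limit of 3 reads in shallow libraries.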
